A study of Mus musculus with 12 samples.

Results

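The genes described here are 6 mouse genes named as targets of the microRNA (miRNA) miR-142-5p: Socs1, Nfe2l2, Smad3, Tgfbr2, Becn1 and Trp53inp1. They were taken by name, not by a cut on their values, from 35944 genes with at least 1 transcript in the deposited tables. Earlier results of these data were known when they were chosen. All 6 were among the 15459 genes that passed the filter on low counts. That they are targets is a prior designation and was not measured in these samples. RNA was sequenced from 12 subcutaneous tumours of 4T1 cells, a mouse mammary carcinoma line, with 3 tumours in each of 4 groups. All mice were female BALB/c animals of 6 to 8 weeks that received 100000 cells in the right flank. From day 5 they received injections beside the tumour, every 2 days, of 3 µg of extracellular vesicles (EVs) of MS-1 cells, a mouse endothelial line, and tumours were taken on day 21. The EVs had been loaded by electroporation with cel-miR-67, a worm miRNA used as the control (ctrl), or with a mimic of 1 of 3 mouse miRNAs, which were miR-222-3p, miR-183-5p and miR-142-5p. Every group, ctrl included, thus carried electroporated endothelial EVs, and each value below is an average over all cells of 1 tumour. In such bulk samples, fewer cells of a type and less RNA per cell cannot be told apart.

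A miRNA guides Argonaute to messenger RNAs that pair with its seed, bases 2 to 8 from its 5′ end, most often in the 3′ untranslated region (3′ UTR). Binding represses translation and usually lowers the amount of the messenger, so target mRNAs are commonly read as a measure of miRNA activity. miR-142-5p is made from a gene active in cells of the blood lineage, so leukocytes in a tumour carry their own copies. The 6 genes act at different points. Nfe2l2 encodes NRF2, the transcription factor of the oxidative stress response. Socs1 encodes an inhibitor of JAK kinases induced by cytokines. Tgfbr2 encodes the type II TGF-beta receptor and Smad3 a transcription factor that this receptor pathway activates. Becn1 encodes Beclin 1, a subunit of the lipid kinase complex that starts autophagosome formation. Trp53inp1 encodes a p53-induced nuclear protein with roles in cell death and autophagy.

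The sequences of the 3 mouse miRNAs are shown because their seeds decide which letters were searched for in the 3′ UTRs. They are the mature forms in RefSeq (GRCm38.p6), 5′ to 3′, with the seed in capitals, and miR-142-5p is listed there as mmu-miR-142a-5p, encoded on chr11:87756867-87756887, plus strand.
miR-142-5p: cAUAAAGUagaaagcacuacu
miR-183-5p: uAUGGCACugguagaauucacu
miR-222-3p: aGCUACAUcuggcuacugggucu
The 3 seeds differ. The miR-222-3p mimic listed by the study lacks the final cu of the RefSeq form and has the same seed. For miR-142-5p, 4 kinds of match were searched on the transcript strand of the 3′ UTR: ACTTTATA (8mer), ACTTTAT (7mer-m8), CTTTATA (7mer-A1) and CTTTAT (6mer), each match being counted once as the longest kind it fits.

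The 3′ UTRs of 5 of the 6 genes held a 7mer-m8 or 8mer match to miR-142-5p, and that of Smad3 held no match of any of the 4 kinds. Among the longest 3′ UTRs of 20951 genes with a coding transcript, 14.4% held a 7mer-m8 or longer match and 4.81% an 8mer. The median 3′ UTR of those genes had 962 bases, and 5 of the 6 genes have longer ones, so the shares are not like for like. The matches are given with the transcript strand 5′ to 3′ (GENCODE M21, GRCm38), the match in capitals.
Nfe2l2 (8mer): aatgcagaaacACTTTATAagtaactatgc
Socs1 (7mer-m8): ttaggtaataaACTTTATtatgaaagttt
Tgfbr2 (7mer-m8): ataacgtttgcACTTTATtaatgcctgtg
Becn1 (7mer-m8): ccacaaaagctACTTTATtttcaaatatg
Trp53inp1 (7mer-m8): gtcagccatatACTTTATtgaccagtact
All 5 lie in 3′ UTR sequence. The Nfe2l2 match is at chr2:75675871-75675878 (minus strand), 83 bases after the stop codon in a 3′ UTR of 448 bases. The Socs1 match is at chr16:10783837-10783843 (minus strand), 390 bases after the stop codon. The Tgfbr2 match at chr9:116090072-116090078 (minus strand) is 300 bases after the stop codon and is shared by both annotated transcripts. The Becn1 match at chr11:101288684-101288690 (minus strand) is in 3 of the 17 annotated Becn1 transcripts. The Trp53inp1 match at chr4:11170365-11170371 (plus strand) is 406 bases after the stop codon, and 3 further 6mers lie in the same 3′ UTR. A match of letters is a description and does not show binding.

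**Figure D1:**
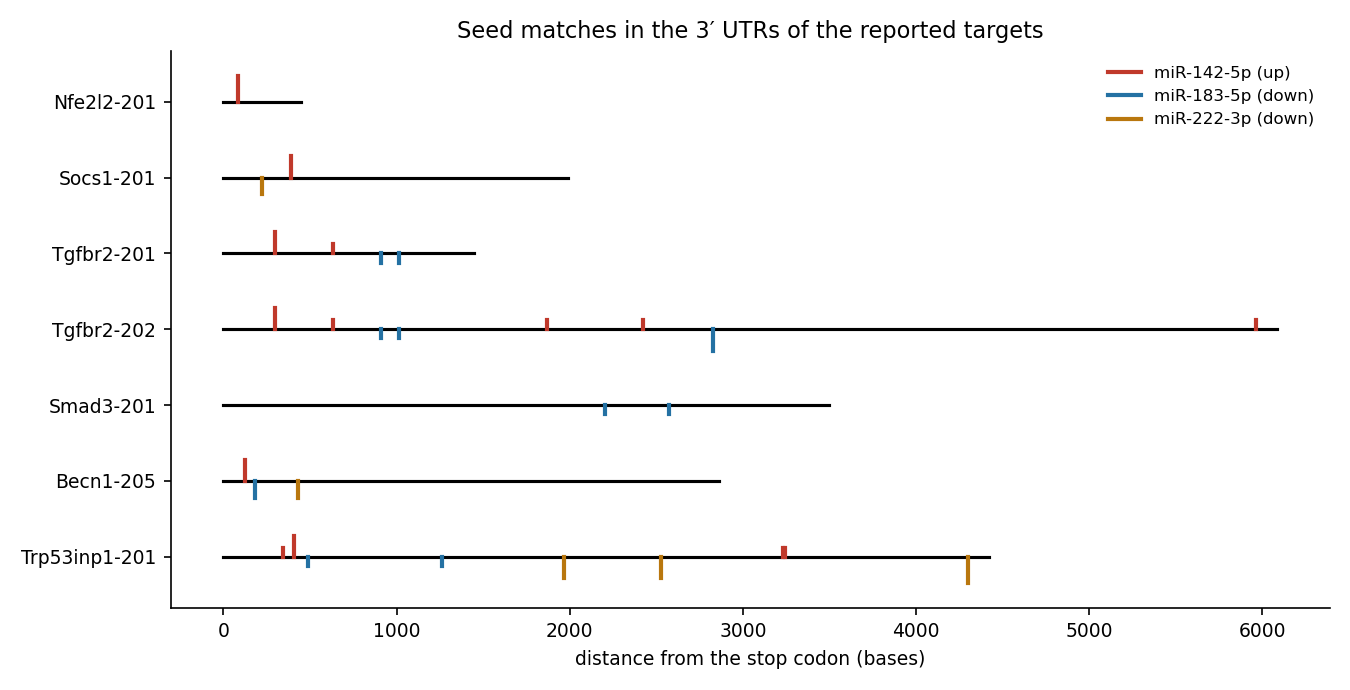
Each line is the annotated 3′ UTR of 1 transcript, drawn by distance from the stop codon in bases, and each tick is a seed match, up for miR-142-5p and down for the other 2 miRNAs, with taller ticks for longer matches (6mer, 7mer-A1, 7mer-m8, 8mer). The 3′ UTR of Smad3-201, of 3495 bases, has no miR-142-5p tick.

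The other 2 mimics also had matches in these 3′ UTRs, so the other mimic groups are not free of seed matches. Trp53inp1 held an 8mer for miR-222-3p at chr4:11174261-11174268 and a pair of 7mer-m8 matches, and no other member held an 8mer for either mimic in its longest 3′ UTR. It is printed because Trp53inp1 is the gene whose level differed most between groups.
Trp53inp1 (miR-222-3p 8mer): aaacaaaaaacATGTAGCAttgcttaacca

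Libraries held 20285968 to 27021401 estimated reads. All 5 carcinoma markers were present in every library, with a summed level of 1275 to 1889 TPM (a transcript level scaled for transcript length and library). One library stood apart: in miR-142-5p tumour 3 the 4 B cell markers summed to 419 TPM, against 1.0 to 2.8 TPM in the other 11 libraries, with at most 1 of the 4 at 0 in any library. The 5 T cell markers summed to 194 TPM there and to 24.5 to 77.8 TPM elsewhere, and the 4 leukocyte markers to 946 TPM against 399 to 579 TPM. The skeletal muscle markers summed to 336 TPM in miR-183-5p tumour 3 and to 13.6 to 25.7 TPM elsewhere. In miR-183-5p tumour 3 and all 3 miR-222-3p tumours, Gm28661 took at most 0.324% of the reads assigned to it or to mt-Co2, against at least 7.13% in the other 8 libraries. All 3 miR-142-5p and all 3 ctrl tumours were among those 8, so the difference between miR-142-5p and miR-222-3p tumours and this split cannot be told apart.

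On the TPM scale, which allows levels of different genes to be compared, Nfe2l2 was the most abundant of the 6 and Socs1 the least. The median over 12 libraries was 102 TPM for Nfe2l2, 83.6 for Becn1, 61.5 for Smad3, 30.7 for Tgfbr2, 10.7 for Trp53inp1 and 4.96 for Socs1. Much of the Becn1 level came from forms not annotated as coding. Their medians were 22.7 TPM for Becn1-201 (nonsense-mediated decay) and 18.5 and 15.4 TPM for the retained-intron forms Becn1-211 and Becn1-202. The coding Becn1-205 had a median of 4.16 TPM. Mean estimated reads per library were 2249 for Becn1, against 5130 for Smad3 and 3443 for Tgfbr2, so the place of Becn1 depends on the measure. Nfe2l2 (91.0 to 122 TPM) and Becn1 (78.4 to 111 TPM) overlapped over libraries, Nfe2l2 being the higher in 10 of 12. The ranges of Becn1 and Smad3 (50.2 to 83.3 TPM) also overlapped, although Becn1 was higher in all 12 libraries. Smad3 and Tgfbr2 (22.3 to 44.2 TPM) did not overlap, nor did Tgfbr2 and Trp53inp1 (7.09 to 20.8 TPM). Trp53inp1 and Socs1 (3.00 to 8.36 TPM) overlapped, and Trp53inp1 was higher in 11 of 12 libraries.

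None of the 6 genes passed the test between miR-142-5p tumours and any other group. Counts were normalised for library size and transcript length and tested with DESeq2's Wald test over all genes, a call being an adjusted p under 0.05. Against ctrl, 0 of 6 members were called, where 0.00649% of 15413 genes were. Against miR-183-5p 0 of 6 were called (0.0519% of genes), against miR-222-3p 0 of 6 (0.0389%), and against the mean of the 3 other groups 0 of 6 (0.0973%). edgeR and limma also called 0 members in each of the 4 comparisons. At an unadjusted p under 0.05 there were 0 members against ctrl (3.56% of genes), 1 against miR-183-5p (7.95%), 0 against miR-222-3p (3.59%) and 1 against the mean of the others (5.64%), and that gene was Trp53inp1, higher, both times. The median log2 fold change of the 6 against ctrl was 0.01, beside -0.01 over all genes, and 2 of the 6 were below 0 where 51.2% of all genes were. These comparisons share the same 3 miR-142-5p tumours and are not independent of each other.

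No member separated the miR-142-5p tumours from another group in every tumour. Against ctrl 0 of 6 members had groups that did not overlap, where 6.07% of genes did. The count was also 0 against miR-183-5p (12.3% of genes), against miR-222-3p (6.20%) and against all 9 other tumours (0.886%).

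**Figure D2:**
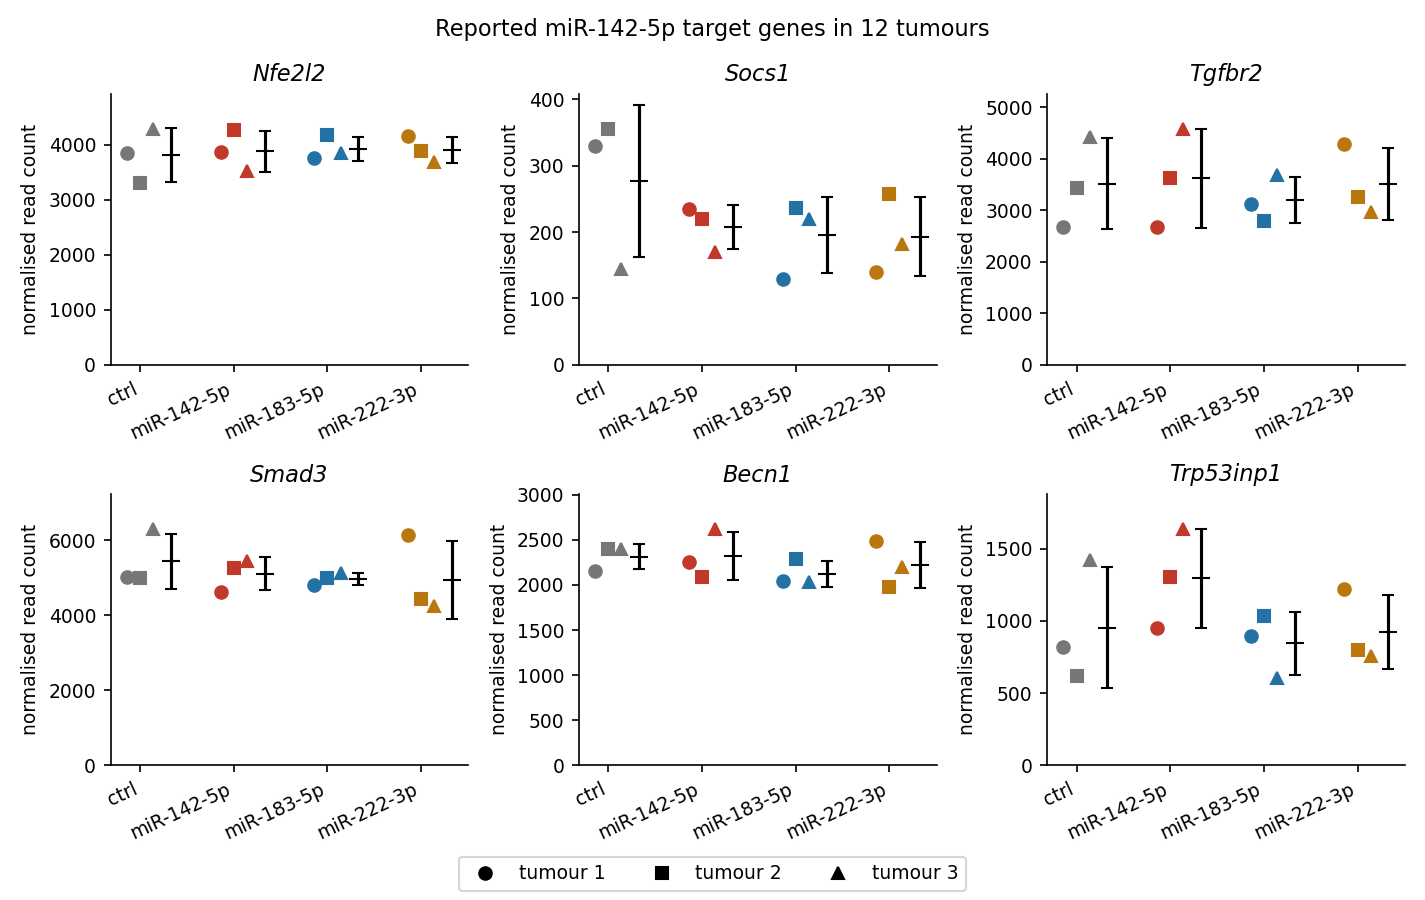
Normalised read count (y axis, from 0) of each gene in each of the 12 tumours by group, with marker shape giving the tumour number and the black bar the mean ± SD of 3 tumours. The miR-142-5p values overlap those of every other group in every panel.

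Nfe2l2, whose 3′ UTR holds the only miR-142-5p 8mer of the 6, was among the steadiest of the genes. Its normalised counts were 3856, 3311 and 4287 in the ctrl tumours, while the miR-142-5p tumours had 3861, 4268 and 3518. Tumours given miR-222-3p had 4153, 3884 and 3686, and those given miR-183-5p had 3759, 4169 and 3852. Both the lowest and the highest of the 12 values were in ctrl tumours. The miR-142-5p mean was 3882 ± 375 (SD, n = 3), against 3818 ± 489 in ctrl. The log2 fold change was 0.02 (SE 0.12, adjusted p = 0.9999), and its 95% interval ran from 0.86-fold to 1.20-fold. Leaving out 1 tumour at a time moved it between -0.07 and 0.12. The coefficient of variation over the 12 libraries was 7.70%, below the median of 13.0% for the 11542 genes with a mean normalised count of at least 100. Transcript Nfe2l2-201, which carries the 8mer, made up 96.4% to 98.2% of the gene's TPM, so nearly all of what was measured holds the match.

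Socs1 had its highest values in ctrl tumours, with 1 exception. Its normalised counts were 329, 355 and 145 in the ctrl tumours, while the miR-142-5p tumours had 234, 219 and 171. Tumours given miR-222-3p had 139, 258 and 182, and those given miR-183-5p had 130, 237 and 219. Ctrl tumours 1 and 2 were the highest of all 12 and ctrl tumour 3 was among the 3 lowest. The log2 fold change of miR-142-5p against ctrl was -0.41 (SE 0.35, adjusted p = 0.9999), with an interval from 0.47-fold to 1.21-fold. Without ctrl tumour 3 it was -0.72, with an unadjusted p of 0.0214 and an adjusted p of 0.913, and without ctrl tumour 2 it was -0.19. Without miR-142-5p tumour 3 it was -0.29. The direction was the same in every alternative against ctrl, and none called the gene. The other mimic groups lay on the same side of ctrl, the log2 fold change of miR-222-3p being -0.52 (SE 0.35) and that of miR-183-5p -0.50 (SE 0.35), all 3 comparisons being made with the same ctrl tumours. Against miR-183-5p and miR-222-3p the miR-142-5p values were 0.09 and 0.11 (SE 0.35 each), with intervals from 0.66-fold to 1.71-fold and from 0.67-fold to 1.73-fold. The gene had a mean of 215 estimated reads per library, the fewest of the 6.

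Tgfbr2 varied between tumours within every group. Its normalised counts were 2672, 3441 and 4428 in the ctrl tumours, while the miR-142-5p tumours had 2667, 3622 and 4580. Tumours given miR-222-3p had 4296, 3261 and 2959, and those given miR-183-5p had 3129, 2793 and 3680. The lowest and the highest of the 12 values were both in miR-142-5p tumours, the highest in tumour 3. The log2 fold change against ctrl was 0.04 (SE 0.23, adjusted p = 0.9999), with an interval from 0.75-fold to 1.41-fold, and it was -0.16 without miR-142-5p tumour 3. That tumour also had the highest lymphocyte marker sums, given above. Ctrl tumour 3, with a Tgfbr2 count of 4428, had B cell markers at 2.8 TPM and T cell markers at 55.6 TPM. The part of lymphocyte content in the result was not tested.

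The spread of Tgfbr2 depended on how reads were divided between its transcripts. Tgfbr2-202, with a 3′ UTR of 6085 bases, stayed at 18.9 to 28.1 TPM, while Tgfbr2-201, with one of 1449 bases, ranged from 0.719 to 20.2 TPM. The short form was at 0.719 TPM in ctrl tumour 1 and at 20.2 TPM in ctrl tumour 3, so the range within a group was as wide as that over all groups. Its mean was 9.39 ± 8.69 TPM (SD, n = 3) in miR-142-5p tumours and 11.3 ± 9.87 TPM in ctrl tumours. Counts scaled for library size alone ranged 1.40-fold over the 12 libraries, against 1.72-fold after the length correction and 1.98-fold in TPM. Both transcripts hold the 7mer-m8 match, and the long one holds 3 more 6mers than the short one.

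Smad3, the member with no seed match in its 3′ UTR, also showed no difference beyond the spread between tumours. Its normalised counts were 5032, 5001 and 6289 in the ctrl tumours, while the miR-142-5p tumours had 4622, 5252 and 5457. Tumours given miR-222-3p had 6149, 4439 and 4238, and those given miR-183-5p had 4795, 4983 and 5119. Ctrl tumour 3 and miR-222-3p tumour 1 were the highest, and the other 10 values lay between 4238 and 5457. The log2 fold change against ctrl was -0.09 (SE 0.16, adjusted p = 0.9999), with an interval from 0.76-fold to 1.16-fold, and it turned to 0.03 without ctrl tumour 3. Transcript Smad3-201 made up 96.7% to 99.7% of the gene's TPM.

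Becn1 was nearly level across the 12 tumours. Its normalised counts were 2153, 2394 and 2394 in the ctrl tumours, while the miR-142-5p tumours had 2257, 2093 and 2616. Tumours given miR-222-3p had 2484, 1972 and 2203, and those given miR-183-5p had 2049, 2283 and 2033. The highest value was in miR-142-5p tumour 3. The log2 fold change against ctrl was 0.01 (SE 0.13, adjusted p = 0.9999), with an interval from 0.84-fold to 1.19-fold, and it was -0.09 without miR-142-5p tumour 3. Counts scaled for library size alone ranged only 1.12-fold, against 1.33-fold after the length correction, which for this gene depends on how reads are divided among 17 transcripts. The 3 transcripts with the seed match made up 23.1% to 37.8% of the gene's TPM, with means of 25.6 ± 1.90 TPM (SD, n = 3) in miR-142-5p tumours and 25.9 ± 3.47 TPM in ctrl tumours. Most of that came from Becn1-201, annotated as a substrate of nonsense-mediated decay, and the coding form with the match, Becn1-205, was at 3.81 ± 0.48 TPM in miR-142-5p tumours and 4.22 ± 0.35 TPM in ctrl tumours.

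Trp53inp1 had the highest mean in miR-142-5p tumours, the opposite direction to a lowered target, but its groups overlapped. Its normalised counts were 820, 618 and 1425 in the ctrl tumours, while the miR-142-5p tumours had 950, 1302 and 1634. Tumours given miR-222-3p had 1219, 801 and 757, and those given miR-183-5p had 899, 1033 and 603. MiR-142-5p tumour 3 was the highest of all 12, followed by ctrl tumour 3 and miR-142-5p tumour 2. The miR-142-5p mean of 1295 ± 342 (SD, n = 3) compared with 954 ± 420 in ctrl, 845 ± 220 in miR-183-5p and 925 ± 255 in miR-222-3p tumours. The log2 fold change was 0.44 against ctrl (SE 0.31, adjusted p = 0.9999), 0.62 against miR-183-5p (SE 0.31, adjusted p = 0.627) and 0.49 against miR-222-3p (SE 0.31, adjusted p = 0.9999). Against the mean of the 3 other groups it was 0.51 (SE 0.26), with an unadjusted p of 0.0443 and an adjusted p of 0.849. The miR-142-5p tumour was the higher in 23 of 27 pairs of tumours, which share 3 miR-142-5p tumours and are not independent.

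The size of the Trp53inp1 difference rested on single tumours. Without ctrl tumour 3 the log2 fold change against ctrl was 0.85, with an unadjusted p of 0.00373 and an adjusted p of 0.687. Both Trp53inp1 and Socs1 then separated the miR-142-5p from the remaining ctrl tumours, in opposite directions, as 16.7% of genes did in either direction. Without ctrl tumour 2 it was 0.21, and without miR-142-5p tumour 3 it was 0.24 against ctrl and 0.31 against the mean of the others. Every alternative kept the Trp53inp1 value above 0 in the 4 comparisons, and none called it. Ptprc encodes the pan-leukocyte antigen CD45. Its normalised counts were 2809, 3276 and 6919 in the miR-142-5p tumours and 2595, 2709 and 4059 in the ctrl tumours. The tumour highest in Ptprc was also the highest in Trp53inp1, and ctrl tumour 3 was the highest ctrl tumour in both. Ctrl tumours 1 and 2 stood in opposite order in these genes, and miR-222-3p tumour 2 had rank 5 in Ptprc and rank 9 in Trp53inp1. Leukocyte kinds also differed: miR-142-5p tumour 3 had the lowest macrophage marker sum of its group, 1457 TPM against 1569 and 2122 TPM. The part of the leukocyte content in the Trp53inp1 values was not tested.

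The 2 main transcripts of Trp53inp1 gave different pictures. Trp53inp1-201, the coding transcript with the seed match, was at 9.93 ± 2.87 TPM (SD, n = 3) in miR-142-5p tumours and at 9.55 ± 3.03 TPM in ctrl tumours, a difference smaller than the spread within either group. Trp53inp1-202, annotated as a processed transcript without a coding sequence, was at 4.90 ± 2.73 TPM in miR-142-5p tumours and 1.55 ± 2.29 TPM in ctrl tumours. It stood at 1.74, 6.54 and 6.41 TPM in the miR-142-5p tumours, and the ctrl value of tumour 3, 4.18 TPM, lay between them. The division of reads between 2 such similar transcripts is an estimate, and these transcript values were not tested.

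**Figure D3:**
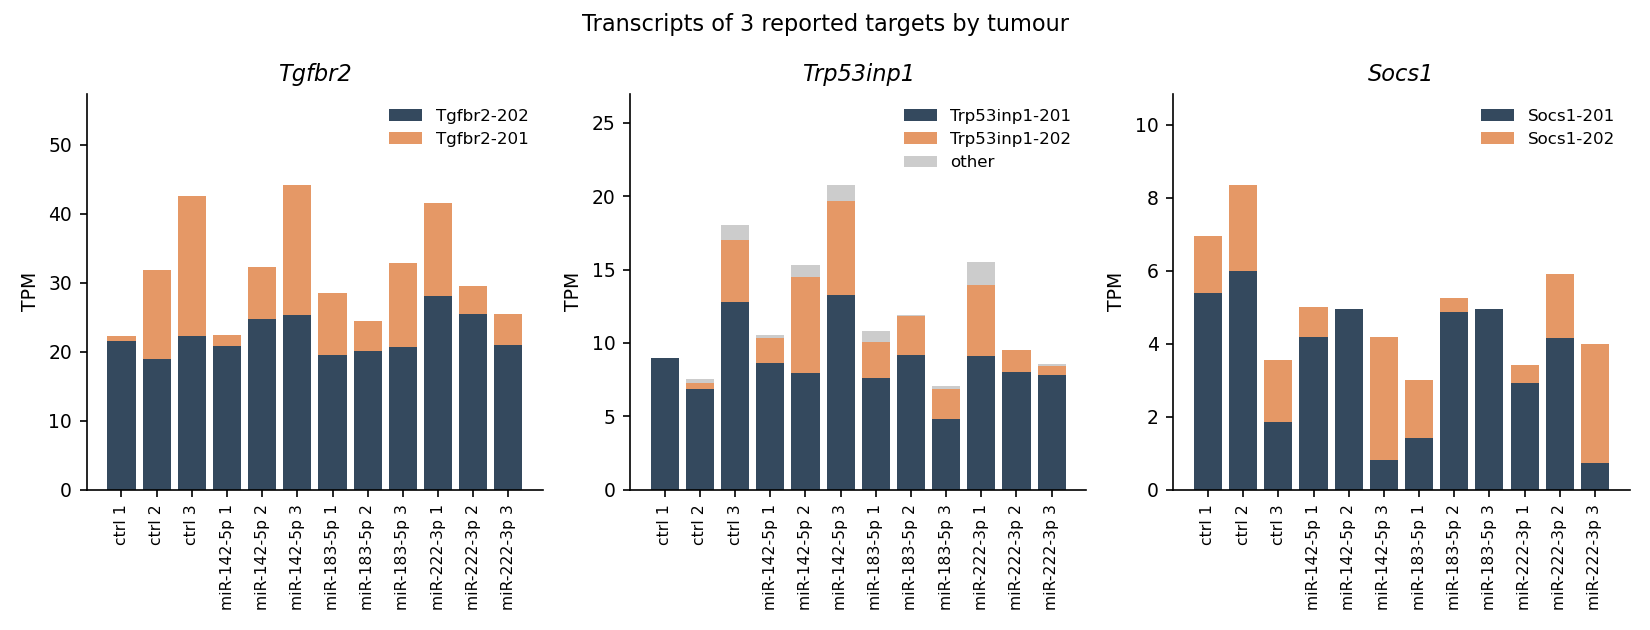
Estimated level of each transcript (TPM, stacked bars from 0) of Tgfbr2, Trp53inp1 and Socs1 in the 12 tumours. The short Tgfbr2-201 ranges from 0.719 to 20.2 TPM while Tgfbr2-202 stays between 18.9 and 28.1 TPM, and the 2 Socs1 transcripts change places between tumours of the same group.

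Socs1 also has 2 annotated transcripts, both coding and both with the 7mer-m8 match. Socs1-201 made up 19.2% of the gene's TPM in miR-142-5p tumour 3 and all of it in tumour 2, so only the sum of both was compared between groups.

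**Figure D4:**
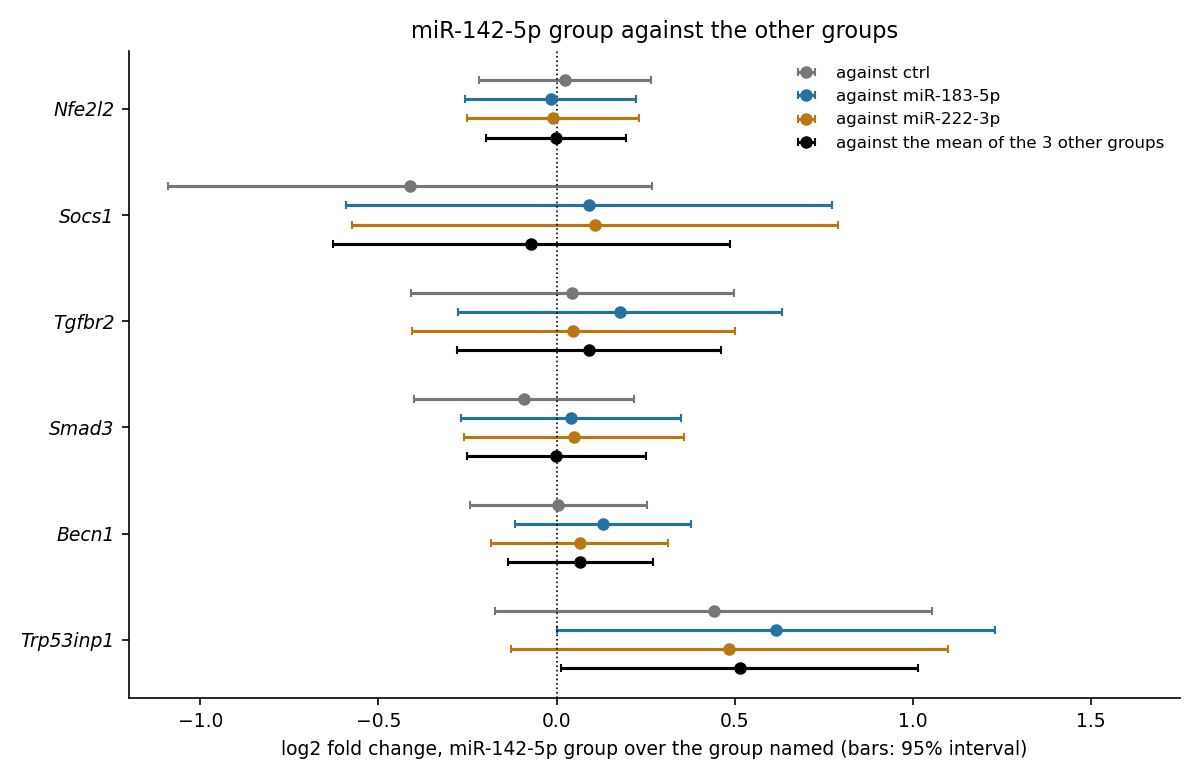
Log2 fold change of the miR-142-5p group over each other group and over the mean of the 3 other groups (x axis) for the 6 genes, with points for estimates and bars for 95% intervals from DESeq2, not corrected for the number of genes. Only the intervals of Trp53inp1 against miR-183-5p and against the mean of the others lie above 0, and no adjusted p passed 0.05.

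The intervals limit what could have been missed in the sum of each gene's transcripts. They may be too narrow, since DESeq2 made more false calls than its nominal level on simulated data of this size. Against ctrl, a fall in whole-tumour mRNA to below 0.84 of the ctrl level lay outside the interval for Nfe2l2, Becn1 and Trp53inp1. For Becn1 and Trp53inp1 this does not limit a fall of the transcripts with the match alone. Those made up 23.1% to 37.8% of the Becn1 TPM and 52.0% to 100% of the Trp53inp1 TPM. For Smad3 and Tgfbr2 the lower bounds were 0.76 and 0.75, and for Socs1 0.47. With 3 tumours a group, the Socs1 interval thus held both no change and a fall to near 0.47 of the ctrl level.

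Over the 12 libraries, Smad3 and Tgfbr2, which act in the same pathway, had the closest pair of patterns among the 6 (Pearson r = 0.76 of log2 normalised counts). Socs1 ran against each of the other 5, with r from -0.55 with Trp53inp1 to -0.22 with Becn1. The gene most like Trp53inp1 among 11541 others was Pik3r5 (r = 0.95), a regulatory subunit of a phosphoinositide 3-kinase of leukocytes, followed by Rab11fip4 (0.95) and Prcp (0.92). Those most like Socs1 were Orc6 (0.95), a subunit of the origin recognition complex, Casp1 (0.91), the inflammasome protease, and Setd6 (0.90). Nfe2l2 was most like Abhd4 (0.94), Abcc3 (0.87), an efflux transporter, and Tgfb3 (0.86), a TGF-beta ligand. Smad3 was most like Ppp2r3a (0.94), Zfp974 (0.94) and Setd5 (0.93), and Tgfbr2 like Map3k3 (0.94), Nfrkb (0.94) and Sin3a (0.94). The closest genes to Becn1 were less close, with Wdfy4 at 0.86, Ikbkg at 0.84 and Gpd1l at 0.84. These correlations over 12 libraries, which share groups and differ in cell makeup, are descriptions chosen as the highest of many.

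The pathways around the 6 genes were described by lists of their other members. Of 24 tested genes of JAK-STAT signalling and the SOCS family, 24 of NRF2 signalling, 24 of TGF-beta signalling, 28 of autophagy and 17 of the p53 response, 0 were called against ctrl by DESeq2 and 0 against the mean of the 3 other groups. edgeR and limma called 0 as well. At an unadjusted p under 0.05 against ctrl there were 1 JAK-STAT gene higher, 1 NRF2 gene lower, 1 TGF-beta gene lower, 0 autophagy genes and 1 p53 response gene higher, where 2.28% of all genes were higher and 1.28% lower, so these counts are near the background.

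In the NRF2 list, 7 of 24 genes lay above 0 against ctrl, and the median log2 fold change was -0.09, beside -0.01 over all genes. Txnrd1, a thioredoxin reductase induced by NRF2, was at 3361 ± 152 (SD, n = 3) in miR-142-5p tumours and 3903 ± 305 in ctrl, a log2 fold change of -0.22 (SE 0.10, adjusted p = 0.9999). The 2 groups did not overlap, as was so for 2.94% of all genes in that direction. Maff, a small Maf protein that pairs with NRF2, had a log2 fold change of -0.29 (SE 0.23, adjusted p = 0.9999).

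In the TGF-beta list, 10 of 24 genes lay above 0 and the median was -0.03. Zfyve9, the anchor protein that brings SMAD2 and SMAD3 to the receptor, was at 878 ± 94.6 in miR-142-5p tumours and 1050 ± 64.1 (SD, n = 3) in ctrl, without overlap, as for 2.94% of all genes in that direction, with a log2 fold change of -0.26 (SE 0.13, adjusted p = 0.9999). Pmepa1, a TGF-beta-induced inhibitor of the pathway, had a value of 0.26 (SE 0.31, adjusted p = 0.9999).

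In the JAK-STAT list, 13 of 24 genes lay above 0 and the median was 0.01. Cish, a SOCS family member induced through STAT5, had a log2 fold change of 0.36 (SE 0.22, adjusted p = 0.9999).

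In the autophagy list, 16 of 28 genes lay above 0 and the median was 0.04. Map1lc3b, which encodes the LC3B protein of autophagosome membranes, had a log2 fold change of 0.24 (SE 0.14, adjusted p = 0.9999), and Ulk1, the kinase that starts autophagy, one of 0.23 (SE 0.16, adjusted p = 0.9999). In the p53 response list, 11 of 17 genes lay above 0 and the median was 0.03. Sesn1, a sestrin induced by p53, was at 713 ± 111 in miR-142-5p tumours and 534 ± 68.2 (SD, n = 3) in ctrl without overlap, as was so for 3.12% of all genes in that direction, with a log2 fold change of 0.42 (SE 0.21, adjusted p = 0.9999). Cdkn1a, the cell cycle inhibitor p21, lay on the other side at -0.28 (SE 0.23, adjusted p = 0.9999).

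Without miR-142-5p tumour 1, 1 of these pathway genes was called against ctrl, Ctgf (Ccn2), a TGF-beta-induced matrix protein, at -0.87 (adjusted p = 0.0464). In the same setting 5 were called against the mean of the others, among them Ctgf, Maff and Cdkn1a lower and Tyk2 higher. Ctgf and Tyk2 were named after their values were seen, and none of these calls was made with all 12 tumours. Over all genes, leaving out that tumour gave 75 calls among 15147 tested against ctrl. Against the mean of the others it gave 274 among 15447.

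**Figure D5:**
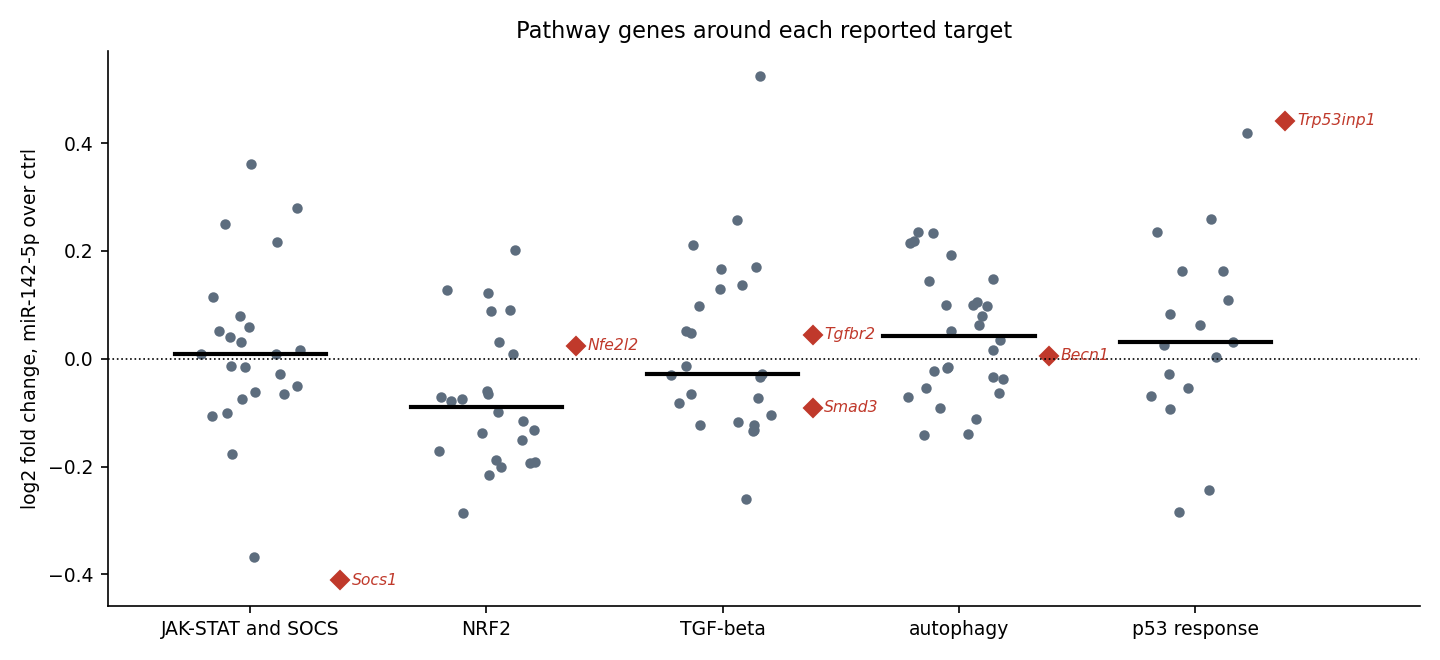
Log2 fold change of miR-142-5p over ctrl tumours (y axis) for each tested gene of 5 pathway lists (grey points, spread sideways for legibility), with the list median as a black bar and the reported target of that pathway as a red diamond. List medians lie between -0.09 and 0.04, Socs1 lies below every other gene of its list and Trp53inp1 above every gene of its list, and none of the genes was called.

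Of the 51 tested marker genes of the cell types a tumour can hold, 0 were called against ctrl by DESeq2, edgeR or limma. At an unadjusted p under 0.05 there were 4 higher, the leukocyte genes Coro1a and Laptm5 and the T cell genes Cd3e and Cd4, and 1 lower, the adipocyte gene Cfd, beside the same 2.28% and 1.28% of all genes. Summed levels in miR-142-5p tumours against the other 9 were 1457 to 2122 against 899 to 1805 TPM for macrophage markers and 1019 to 1660 against 882 to 3042 TPM for neutrophil markers. They were 108 to 133 against 90.4 to 145 TPM for endothelial and 157 to 289 against 186 to 535 TPM for fibroblast markers. They were 53.6 to 85.6 against 61.3 to 95.2 TPM for adipocyte and 282 to 680 against 150 to 761 TPM for erythrocyte markers. The ranges overlapped for all 6 of these lists. The B cell markers Cd79a and Cd79b, high in miR-142-5p tumour 3 alone, got no p from DESeq2 because 1 of the counts was outlying, and they were 2 of 4 markers without a p. Both were called higher against ctrl without miR-142-5p tumour 1, and likewise without miR-142-5p tumour 2. Against the mean of the 3 other groups, leaving out tumour 1 gave calls for Cd79a, Cd79b, Coro1a (log2 fold change 0.78, adjusted p = 0.0254) and Cd4 (2.32, adjusted p = 0.00491), all higher. Leaving out tumour 2 gave calls for Cd79a, Cd79b and Coro1a (0.79, adjusted p = 0.0487), also higher. Each leave-out that gave marker calls kept miR-142-5p tumour 3, which had the highest T cell and leukocyte sums. Without that tumour 0 marker genes were called against ctrl. In the miR-142-5p tumours Cd4 was at 238 ± 271 (SD, n = 3) and Coro1a at 4621 ± 2269. Mir142hg, the host transcript of miR-142, was not analysed here. The level of the miRNA itself in the tumours is not known from these data.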

How the data were processed

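RNA of 12 tumours was made into stranded poly(A) libraries and sequenced as paired-end reads. The authors estimated transcript levels with Salmon (GRCm38, per the labels) and the deposited files give, per transcript, estimated counts, TPM and transcript length. The Ensembl release differed between the sources used here. Transcripts were matched to GENCODE M21, 98.3% of 118783 being found, and the unmatched took 0.633 to 0.671% of the reads. Counts and TPM were summed by gene and counts rounded. Genes with at least 10 estimated reads in at least 3 libraries were tested with DESeq2 1.42.0 (Wald test, all 4 groups, average transcript length as offset, Benjamini-Hochberg adjustment over all genes), as the study's methods name DESeq2. edgeR 4.0.16 and limma 3.58.1, on log2(TPM + 1), were alternatives. The scripts were tested on simulated data, where DESeq2 made more false calls than its nominal level and edgeR and limma did not. Counts within groups differed by more than sampling noise in all 12 pairs (chi-square per degree of freedom at least 14.0). The labels number the tumours of a group, and p-values measure the spread between these samples. The 6 members, the 5 pathway lists and the 11 marker lists were chosen with earlier results of these data known. Genes named are the 6 members, the 3 genes most like each member, Ptprc and pathway genes called. Also named are the 2 genes of each pathway list with the largest change against ctrl, at a mean normalised count of at least 100. Markers are named if called, or if their unadjusted DESeq2 p against ctrl was under 0.05. Smad6 and Ltbp1 are named outside this rule. A pair of pathway genes that this rule or a count would name is not reported here.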

Additional observations from a re-analysis of the deposited data

How the results depend on the processing

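Leaving out any tumour, the members called stayed at 0 in all 4 comparisons, as they did under every other alternative. The number of all genes called moved. Leaving out 1 tumour it ranged from 0 to 75 against ctrl, from 0 to 415 against miR-183-5p, from 2 to 72 against miR-222-3p and from 0 to 274 against the mean of the 3 other groups, the highest being without miR-142-5p tumour 1 each time. Pathway genes called then ranged from 0 to 1 against ctrl and from 0 to 5 against the mean of the others, and marker genes called against ctrl from 0 to 2. With all 12 tumours the counts were 1, 8, 6 and 15 in that order. edgeR and limma called 0 in each comparison. Without the length offset the counts were 0 against ctrl, 4 against miR-183-5p and 5 against the mean of the others, and without the count filter 5 against miR-183-5p. At least 50 reads in every library gave 0 against miR-222-3p and 0 against the mean of the others. Fitting only the groups compared gave 71 against miR-183-5p and 15 against miR-222-3p. Without the 4 libraries low in Gm28661, an alternative chosen after seeing the data, the counts were 0 against ctrl and 2 against the mean of the others. The causes were not tested.

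Replicate numbers pair the tumours by name only: the deviations of same-numbered tumours from their group means correlated at -0.58 to 0.36 over 18 pairs. With a replicate block the count against the mean of the others was 2, and the log2 fold change of Smad3 there turned to 0.0013. The block changed no member's call.

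Members close to 0 changed sign. Against the mean of the others, Nfe2l2 was 0.00035 with edgeR, 0.00025 with TMM factors and 0.0033 with at least 50 reads, and Smad3 was 0.00094, 0.00095 and 0.0046 in that order and 0.0045 without the length offset. Against ctrl Becn1 was -0.011 with limma. Against miR-222-3p without the length offset, Tgfbr2 was -0.0032 and Becn1 -0.019. Leaving out 1 tumour against ctrl, the log2 fold change ranged from -0.070 to 0.12 for Nfe2l2, from -0.15 to 0.028 for Smad3, from -0.16 to 0.25 for Tgfbr2 and from -0.089 to 0.076 for Becn1. Against miR-183-5p it ranged from -0.13 to 0.25 for Socs1, from -0.090 to 0.049 for Nfe2l2, from -0.0089 to 0.11 for Smad3 and from -0.026 to 0.36 for Tgfbr2. Against miR-222-3p it ranged from -0.081 to 0.37 for Socs1, from -0.082 to 0.056 for Nfe2l2, from -0.049 to 0.24 for Smad3, from -0.16 to 0.23 for Tgfbr2 and from -0.030 to 0.15 for Becn1. Against the mean of the others it ranged from -0.17 to 0.054 for Socs1, from -0.073 to 0.065 for Nfe2l2, from -0.051 to 0.067 for Smad3, from -0.11 to 0.27 for Tgfbr2 and from -0.028 to 0.14 for Becn1. Trp53inp1 stayed above 0 in each comparison and Socs1 below 0 against ctrl. Over all genes, tumours of a group differed by far more than counting error (chi-square per degree of freedom at least 14.0), and what depth adds for single members was not tested.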
